A study of Mus musculus with 2 samples.

Results

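Ankyrins and spectrins form the skeleton under the plasma membrane, and the RNAs of 7 of these genes are described here: the ankyrins Ank1, Ank2 and Ank3, the alpha spectrin Sptan1 and the beta spectrins Sptb, Sptbn1 and Sptbn4. They were taken by name, with earlier results of these data known, and make up 7 of the 55536 annotated genes in the tables. All 7 stood in the gene tables of both libraries, and all 125 of their annotated transcripts were found in both kinds of transcript table. Total RNA was sequenced from the left cerebral cortex of 2 male mice aged 4 days. Both were B6CASTF1/J mice from The Jackson Laboratory, an F1 hybrid of a C57BL/6 and a Mus musculus castaneus strain with no further allele or treatment named. Each mouse gave 1 library from 300 ng of RNA, strand-specific, with ribosomal RNA reduced and ERCC spike-in RNAs added. The labels number the mice as replicate 2 and replicate 1 and give them separate tissue samples under 1 shared donor entry. There was no other group, so the design holds no contrast between conditions, and every spread below is that between these 2 mice.

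Alpha and beta spectrins pair into long flexible tetramers that cross-link short actin filaments below the membrane. Ankyrins bind beta spectrin on one side and membrane proteins, such as sodium channels, ion pumps and cell adhesion molecules, on the other. In neurons ankyrin-G, the product of Ank3, gathers channels at the axon initial segment with beta IV spectrin (Sptbn4), and ankyrin-B, the product of Ank2, lies along the axon with alpha II and beta II spectrin (Sptan1 and Sptbn1). Both neuronal ankyrins have giant forms, made when a single very long exon is kept in the transcript. Ank1 and Sptb are best known from the red blood cell, where their loss causes spherocytosis.

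The library of replicate 2 held 29511737 expected counts and that of replicate 1 held 26897687. Levels are given as TPM, a transcript's share of all transcripts of its library, which allows for transcript length and so can be set side by side between genes. A gene was called detected at 1 TPM or more in both libraries. All 7 genes of the cortex marker list were detected, Slc17a7 among them. The summed markers of 3 other structures differed between the libraries by a larger fold than any of the 7 members did. The summed level of the 3 choroid plexus markers, of which 1 was detected, was 33.6 TPM in replicate 2 and 1.75 TPM in replicate 1. Nearly all of this difference came from the detected one, Ttr, at 32.4 TPM in replicate 2 and 1.03 TPM in replicate 1. Kl was at 0.49 TPM in replicate 2 and 0.52 TPM in replicate 1, and Folr1 had 6 reads in replicate 2 and 3 in replicate 1. The summed level of the 3 olfactory bulb markers was 37.3 TPM in replicate 2 and 7.45 TPM in replicate 1, and that of the 4 striatal markers was 80.2 TPM in replicate 2 and 46.9 TPM in replicate 1.

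The giant exons set Ank2 and Ank3 apart from the other members, and their edges are shown here. The giant share of each gene is the share of whole models, so reads from their other exons count towards it too. In Ank2 the giant exon is 6198 of the 12413 bases of Ank2-207 and of the 14305 bases of Ank2-208. A giant transcript was taken as one with a single exon of 5000 bases or more inside its coding sequence, and 3 of the 125 models met this. In Ank2 the giant exon has 6198 bases at chr3:126941610-126947807 on the minus strand and is exon 37 of the 46 exons of Ank2-208. In Ank3 it has 7674 bases at chr10:69986089-69993762 on the plus strand. Both lengths are multiples of 3, so that keeping or skipping the exon leaves the reading frame. The lines below run 5′ to 3′ over 30 bases on each side of a junction, in mm10 with GENCODE M21 models, with the giant exon in capitals.
Ank2 entry: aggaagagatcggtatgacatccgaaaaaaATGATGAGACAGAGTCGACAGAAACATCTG
Ank2 exit: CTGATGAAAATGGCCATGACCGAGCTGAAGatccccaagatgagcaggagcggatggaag
Ank3 entry: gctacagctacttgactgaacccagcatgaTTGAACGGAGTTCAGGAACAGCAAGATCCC
Ank3 exit: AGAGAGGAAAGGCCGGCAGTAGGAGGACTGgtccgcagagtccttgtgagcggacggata

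When Ank3 skips the giant exon, as in Ank3-231, the same upstream exon joins the exon that follows the giant one. That following exon, of 75 bases at chr10:69994372-69994446, is in capitals in the next line and is the lower-case end of the Ank3 exit line.
Ank3 skip: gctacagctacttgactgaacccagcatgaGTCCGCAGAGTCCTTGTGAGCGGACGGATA

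The 7 members fell into 4 genes of high level and 3 of moderate level, in the same order in both libraries. Ank2 (ENSMUSG00000032826.17, chr3:126921612-127499350, minus strand) stood at 450.13 TPM in replicate 2 and 509.91 TPM in replicate 1, with a mean of 480.0 ± 42.3 TPM (SD, n = 2, as for every mean below). It ranked 89 among the 13084 detected protein-coding genes. Sptan1 (ENSMUSG00000057738.13, chr2:29965560-30031451, plus strand) was at 428.55 TPM in replicate 2 and 439.82 TPM in replicate 1, a mean of 434 ± 7.97 TPM. Ank2 and Sptan1 therefore lay close together, and the log2 ratio of Ank2 over Sptan1, 0.14 ± 0.10, did not exceed 2 SD.

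Sptbn1 (ENSMUSG00000020315.18, chr11:30099395-30268175, minus strand), the general beta II spectrin of neurons, was at 284.3 TPM in replicate 2 and 294.12 TPM in replicate 1. Ank3 (ENSMUSG00000069601.14, chr10:69398773-70027438, plus strand) was at 245.79 TPM in replicate 2 and 286.29 TPM in replicate 1. Their means, 289 ± 6.94 TPM for Sptbn1 and 266 ± 28.6 TPM for Ank3, also could not be ordered beyond the spread, with a log2 ratio of 0.12 ± 0.12. The step from Ank3 to the next gene, Sptbn4, was much larger, at 2.89 ± 0.05 on the log2 scale.

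Sptbn4 (ENSMUSG00000011751.16, chr7:27356383-27447686, minus strand) stood at 33.8 TPM in replicate 2 and 37.65 TPM in replicate 1, a mean of 35.7 ± 2.72 TPM. Sptb (ENSMUSG00000021061.15, chr12:76580488-76710547, minus strand) was at 19.51 TPM in replicate 2 and 17.7 TPM in replicate 1, a mean of 18.6 ± 1.28 TPM. Ank1 (ENSMUSG00000031543.18, chr8:22974844-23150497, plus strand) was at 11.31 TPM in replicate 2 and 11.27 TPM in replicate 1, a mean of 11.3 ± 0.0283 TPM. The median of the detected protein-coding genes was 17.6 TPM, so that Sptb lay near it and Ank1 was the one member below it. Among the neighbours in this lower part, Sptbn4 exceeded Sptb by 0.94 ± 0.21 and Sptb exceeded Ank1 by 0.71 ± 0.10 on the log2 scale, both beyond 2 SD.

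**Figure D1:**
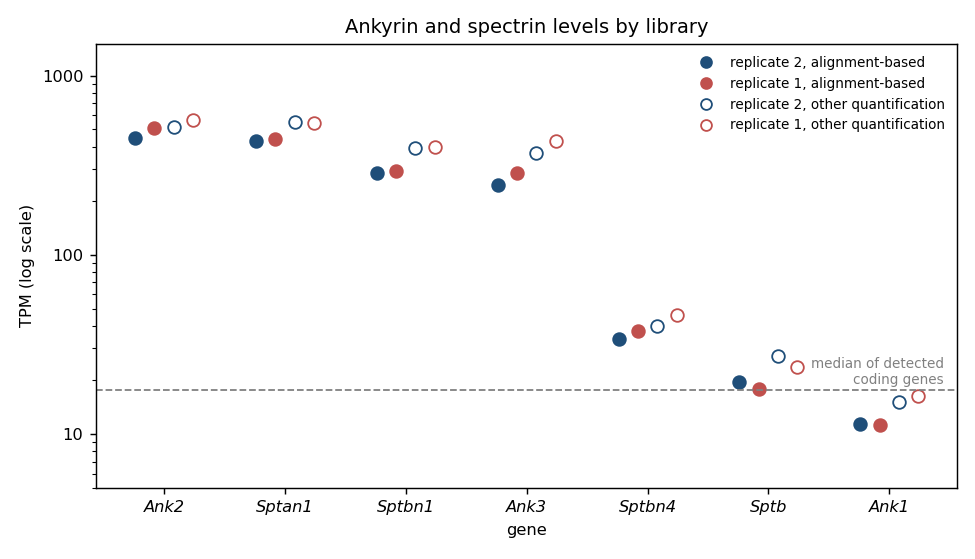
TPM on a log axis for the 7 genes, ordered by mean level, with replicate 2 in blue left of replicate 1 in red; filled points are the alignment-based quantification and open points the other one, and the dashed line is the median of detected protein-coding genes at 17.6 TPM. Ank2, Sptan1, Sptbn1 and Ank3 lie above 240 TPM in every value shown, while Sptbn4, Sptb and Ank1 lie below 50 TPM.

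The order within the upper 4 differed between the scales tried. The other quantification, made straight from the reads with a transcript index per the deposited notes, put Ank2 at 519 TPM in replicate 2 and 565 TPM in replicate 1, and Sptan1 at 548 TPM in replicate 2 and 540 TPM in replicate 1. It put Ank3 at 368 TPM in replicate 2 and 429 TPM in replicate 1 and Sptbn1 at 396 TPM in replicate 2 and 398 TPM in replicate 1, so that neither neighbouring pair kept one sign in both libraries. CPM (counts scaled to a common library size) per kilobase of each gene's longest coding transcript, a measure chosen after the transcript tables were seen, gave 206 for Sptan1, 162 for Sptbn1, 126 for Ank2 and 92.9 for Ank3. On that fixed-length scale the log2 ratio of Ank2 over Sptan1 was -0.71 ± 0.11. The gap between the upper 4 and the lower 3 members was present on all 3 scales.

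The members of each family differed widely in level. Of the summed ankyrin level, 707 TPM in replicate 2 and 807 TPM in replicate 1, almost all came from Ank2 and Ank3. Ank2 exceeded Ank3 by 0.85 ± 0.03 on the log2 scale, a 1.81-fold difference, and by 0.45 in the other quantification. Ank1 was lower than Ank3 by a log2 ratio of -4.54 ± 0.16. Among the beta spectrin members, Sptbn4 stood below Sptbn1 by a log2 ratio of -3.02 ± 0.08 and Sptb by -3.95 ± 0.13. Each of these pair ratios had the same sign in both mice and exceeded 2 SD, but an exact sign test over 2 mice cannot give a p below 0.5.

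Ank2 and Ank3 span 578 kb and 629 kb of the genome, longer than 98.8% and 99.0% of the detected protein-coding genes. Ank1 spans 176 kb, Sptbn1 169 kb, Sptb 130 kb and Sptbn4 91.3 kb. Sptan1, the shortest of the members at 65.9 kb, is still longer than the median of 25.9 kb. No other annotated gene that shared exon bases with a member had a level above 1.67 TPM, the highest being Plekhg3 with 1 base shared with Sptb on the opposite strand.

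Giant models held 34.5 ± 0.438% of the Ank2 level and 26.6 ± 0.356% of the Ank3 level in TPM. Ank2-207 and Ank2-208, which share the giant exon and differ in their first exons and their ends, summed to 157 TPM in replicate 2 and 175 TPM in replicate 1. This was 34.9% of the gene's TPM in replicate 2 and 34.2% in replicate 1, and 44.2% in replicate 2 and 43.4% in replicate 1 in the other quantification. Measured in reads, the same 2 models took 76.2% of the gene's expected counts in replicate 2 and 75.9% in replicate 1, a share that weighs each transcript by its length. The 2 mice differed by less than 1 percentage point on each of these scales, far less than the scales differed from each other.

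Much of the rest of Ank2 went to short or incomplete models. Ank2-216, a single-exon model classed as a retained intron, was at 88.9 TPM in replicate 2 and 110 TPM in replicate 1, or 19.8% of the gene in replicate 2 and 21.5% in replicate 1. Of its 2359 bases, 2358 also lie in the last exon of the giant model Ank2-208, so reads there fit both models. The 10 models of this class made up 26.4% of the gene in replicate 2 and 30.3% in replicate 1. Over protein-coding models alone the giant share of Ank2 was 47.4% in replicate 2 and 49.1% in replicate 1.

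M21 gives few Ank2 models against which the giant ones could be weighed. Coding models that span the giant exon and skip it numbered 2 and held 4.47% of the TPM in replicate 2 and 2.86% in replicate 1, or 8.97% in replicate 2 and 4.10% in replicate 1 in the other quantification, there mostly in the incomplete model Ank2-206. The highest of them in the alignment-based table was Ank2-201, at 18.0 TPM in replicate 2 and 14.6 TPM in replicate 1, which starts well downstream of both giant models. No annotated model that starts at or upstream of Ank2-207 reached the last exons without the giant exon (0 models). A full-length transcript without the giant exon would thus have no model of its own in these tables, and the giant share of Ank2 is a share among the annotated models only.

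In Ank3 the giant exon stood beside many annotated models that skip it. Ank3-244, the only giant model, was at 66.05 TPM in replicate 2 and 75.5 TPM in replicate 1. It is annotated as incomplete at both ends, with 9 exons over 8612 bases, of which the giant exon is 89.1%. Its share of the gene was 26.9% in replicate 2 and 26.4% in replicate 1, and 25.0% in replicate 2 and 23.8% in replicate 1 in the other quantification. In expected counts the share was 41.8% in replicate 2 and 41.7% in replicate 1.

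The 22 coding Ank3 models that span the giant exon and skip it summed to 68.9 TPM in replicate 2 and 75.5 TPM in replicate 1, or 28.0% of the gene in replicate 2 and 26.4% in replicate 1. Among the annotated models, giant and skipping ones thus had nearly equal levels in each mouse. This also held in the other quantification, with 24.9% in replicate 2 and 23.2% in replicate 1 for skipping models. Ank3-244 holds only the exons around the giant one, so the other exons of a giant transcript have no giant model. Reads from those exons would fit other models, and the giant share of Ank3 is a share among the annotated models only. Another 5 models that hold a part of the giant exon made up 16.8% in replicate 2 and 14.9% in replicate 1, the highest of them Ank3-225 at 11.7 TPM in replicate 2 and 14.6 TPM in replicate 1. The highest skipping models were Ank3-240, at 31.1 TPM in replicate 2 and 36.0 TPM in replicate 1, and Ank3-231, at 29.1 TPM in replicate 2 and 33.4 TPM in replicate 1. Ank3-226, an incomplete model of 1007 bases that ends upstream of the giant exon, stood at 21.4 TPM in replicate 2 and 24.4 TPM in replicate 1.

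**Figure D2:**
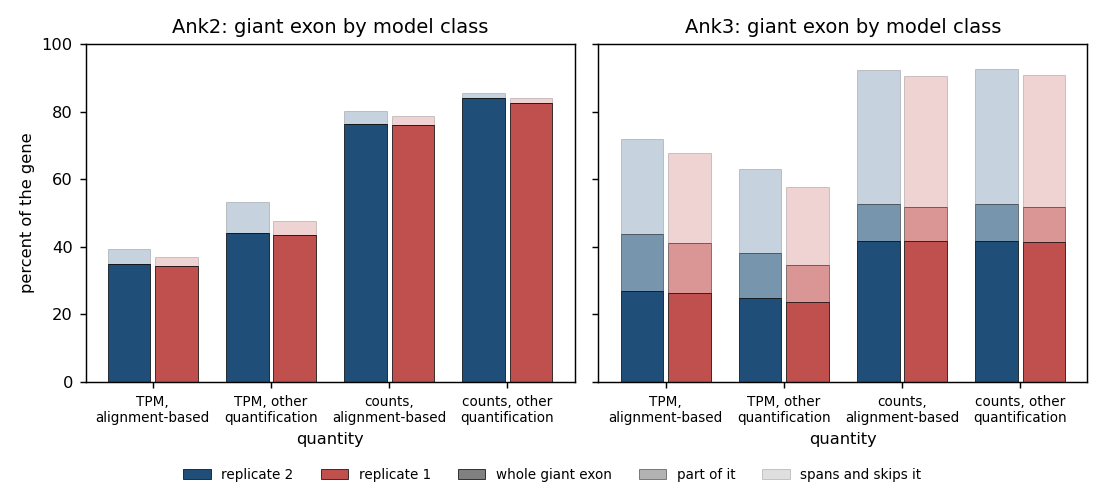
Percent of the gene (0 to 100) held by models with the whole giant exon, with a part of it, or spanning and skipping it (dark to pale), for Ank2 on the left and Ank3 on the right, in 4 quantities, with replicate 2 in blue left of replicate 1 in red. The giant share of Ank2 is 34.9% in replicate 2 and 34.2% in replicate 1 in TPM but 76.2% in replicate 2 and 75.9% in replicate 1 in expected counts, and in Ank3 the skipping models take a share close to the giant one.

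Start sites also differed in use. Shares of starts are taken over models with a complete start, leaving out those classed as retained introns. The giant model Ank3-244 and Ank3-226, both of incomplete start, are therefore outside the Ank3 shares. In Ank3 the 12 models that begin at chr10:69533772-69534222 took 77.1% of the TPM in replicate 2 and 76.8% in replicate 1. The 9 models of an internal start at chr10:69925495-69926133 took 7.81% in replicate 2 and 5.82% in replicate 1, but 0.470% in replicate 2 and 0.617% in replicate 1 in the other quantification, so their level depended on the method. In Ank2 the start of Ank2-207, at chr3:127225847-127225933, led with 51.3% in replicate 2 and 55.3% in replicate 1. The start of Ank2-208, at chr3:127408954-127409059, followed with 27.8% in replicate 2 and 27.1% in replicate 1. The most upstream start, at chr3:127499001-127499350, held 12.6% in replicate 2 and 11.4% in replicate 1, most of it in Ank2-218, a model that ends before the giant exon.

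**Figure D3:**
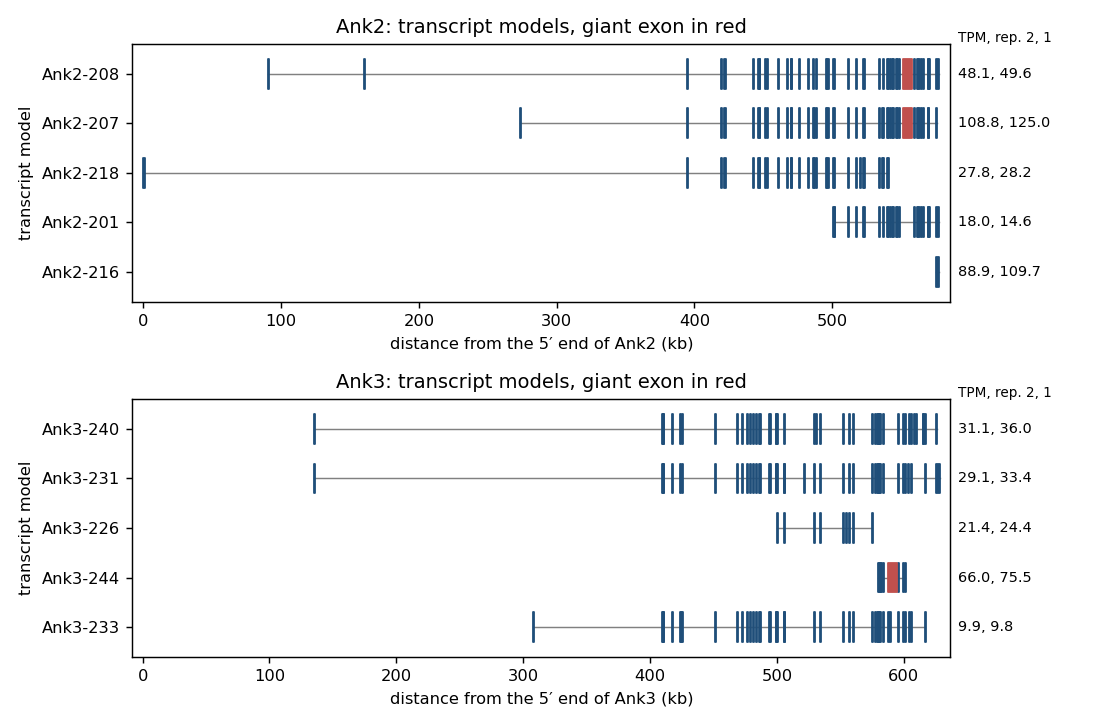
Exons (bars, drawn at least 0.8 kb wide) of 5 transcript models each of Ank2 and Ank3, against the distance in kb from the 5′ end of the gene, with the giant exon in red and the TPM of replicate 2 and then replicate 1 at the right. The giant exon lies near the 3′ end of both genes; Ank2-207 and Ank2-208 reach it from different starts, while Ank3-244 covers only the exons around it.

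Ank1 stood at a moderate level and was made mostly from its most upstream start. Ank1-209, with 44 exons, was the leading model at 6.97 TPM in replicate 2 and 5.24 TPM in replicate 1. In the other quantification it was at 5.58 TPM in replicate 2 and 2.98 TPM in replicate 1, where Ank1-210, at 3.03 TPM in replicate 1, stood slightly above it. The models starting at chr8:22974844-22975136 held 72.1% of the TPM, counted over starts as above, in replicate 2 and 71.2% in replicate 1, against 67.0% in replicate 2 and 53.6% in replicate 1 in the other quantification. Those starting at chr8:23058259-23058525 held 22.5% in replicate 2 and 20.4% in replicate 1, mainly Ank1-210, which is classed as a target of nonsense-mediated decay, at 1.83 TPM in replicate 2 and 1.74 TPM in replicate 1. The small internal forms starting at chr8:23139030-23139277, of a kind known from striated muscle, held 0.54 TPM in replicate 2 and 0.31 TPM in replicate 1. They were at 0 in replicate 2 and 0.858 TPM in replicate 1 in the other quantification, so that no level can be given for them at this depth.

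Of the 6 full-length models of Sptan1, 5 share 1 start, and Sptan1-208, at 0 TPM in both mice, has another. They differ in 3 alternative coding exons, whose lengths of 60, 15 and 63 bases are all multiples of 3. Alternative exons of this kind are known to add short stretches to alpha II spectrin, the general alpha chain outside red blood cells and a substrate of calpain. The exons are printed in capitals with 15 bases of the neighbouring exons, since the full-length models differ in which of them they hold. They lie on the plus strand at chr2:30001100-30001159, chr2:30014158-30014172 and chr2:30028644-30028706.
Sptan1 60-base exon: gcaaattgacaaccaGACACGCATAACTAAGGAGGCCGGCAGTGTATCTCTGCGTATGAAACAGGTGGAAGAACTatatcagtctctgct
Sptan1 15-base exon: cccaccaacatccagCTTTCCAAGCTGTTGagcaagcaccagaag
Sptan1 63-base exon: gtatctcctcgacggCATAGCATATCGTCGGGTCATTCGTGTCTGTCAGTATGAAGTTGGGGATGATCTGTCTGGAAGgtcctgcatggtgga

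The 3 exons had very different inclusion. Models with the 60-base exon held 44.7% of the full-length TPM in replicate 2 and 48.0% in replicate 1, and 51.3% in replicate 2 and 51.4% in replicate 1 in the other quantification. Those with the 15-base exon held 97.7% in replicate 2 and 96.7% in replicate 1, and those with the 63-base exon 2.69% in replicate 2 and 1.21% in replicate 1, a mean share that was 4.52% in the other quantification. In both mice the 60-base exon was thus at an intermediate share, the 15-base exon in nearly all transcripts and the 63-base exon in few. The leading models were Sptan1-204, at 158 TPM in replicate 2 and 149 TPM in replicate 1, and Sptan1-203, at 140 TPM in replicate 2 and 151 TPM in replicate 1, of which Sptan1-203 holds the 60-base exon. The order of these 2 models differed between the mice.

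Among its complete coding models, Sptbn1, whose long form ends in a membrane-binding pleckstrin homology domain, was almost entirely in the form with the longer coding 3′ end. Sptbn1-201 held 248 TPM in replicate 2 and 235 TPM in replicate 1. Models with the longer end, Sptbn1-201 and Sptbn1-202, made up 96.4% of the complete coding models in replicate 2 and 95.5% in replicate 1. The shorter-ended Sptbn1-203 was at 9.25 TPM in replicate 2 and 11.91 TPM in replicate 1. Sptbn1-204, a coding model of incomplete end, is outside these shares, and its 3′ form is not given. It was at 4.53 TPM in replicate 2 and 4.10 TPM in replicate 1. In the other quantification it was at 53.7 TPM in replicate 2 and 52.1 TPM in replicate 1, or 13.5% and 13.1% of the gene. Sptbn1-202, which has another start, stood at 2.77 TPM in replicate 2 and 18.4 TPM in replicate 1 but at 0.0339 TPM in replicate 2 and 0.532 TPM in replicate 1 in the other quantification.

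In Sptb the balance of ends was the other way. Sptb-202, whose coding sequence of 6411 bases stops earlier, was at 13.15 TPM in replicate 2 and 12.76 TPM in replicate 1. It held 67.4% of the gene in replicate 2 and 72.1% in replicate 1, and 65.7% in replicate 2 and 69.7% in replicate 1 in the other quantification. Sptb-201, with the longer coding sequence of 6987 bases, was at 6.36 TPM in replicate 2 and 4.94 TPM in replicate 1. The shorter carboxy-terminal end is known from beta I spectrin of red blood cells and the longer one from muscle and brain, as described chiefly in human. Of the 1672 bases of the last exon of Sptb-202, at chr12:76596130-76597801, 1596 lie in an intron of Sptb-201, and the part of unspliced RNA in this share was not tested.

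Sptbn4, the beta IV spectrin of axon initial segments and nodes of Ranvier, was mainly in its long form. Sptbn4-201 was at 20.93 TPM in replicate 2 and 22.85 TPM in replicate 1. A shorter form without the amino-terminal actin-binding region is also known at axon initial segments. The internal-start models, with Sptbn4-203 in the lead at 5.18 TPM in replicate 2 and 3.78 TPM in replicate 1, held 21.8% of the complete coding models in replicate 2 and 19.0% in replicate 1. In the other quantification they held 5.28% in replicate 2 and 1.60% in replicate 1, so that the long form led in both methods but the size of the shorter share did not hold. Sptbn4-206, an incomplete model of 493 bases with a start of its own, took 6.07 TPM in replicate 2 and 7.27 TPM in replicate 1.

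**Figure D4:**
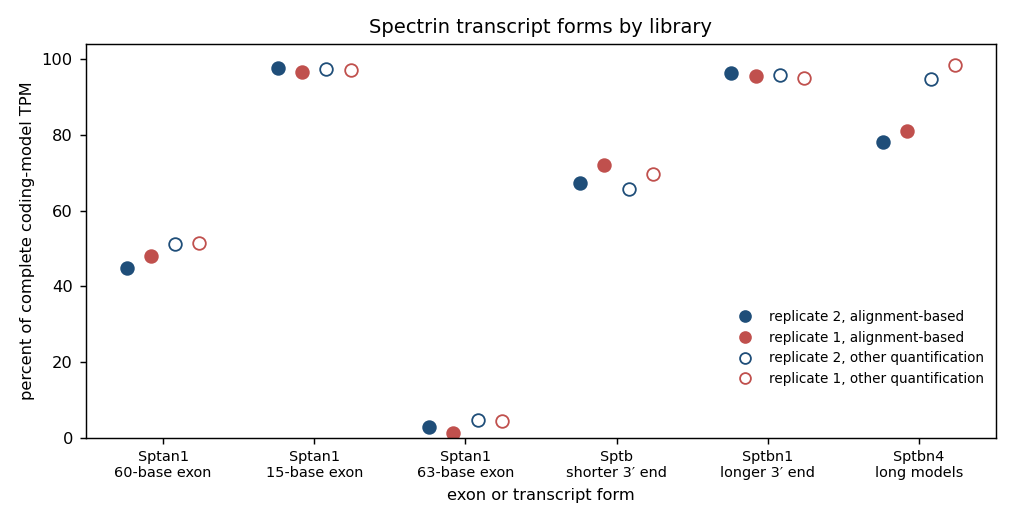
Percent of the TPM of complete coding models (0 to 100) held by 6 spectrin transcript forms, with replicate 2 in blue left of replicate 1 in red, filled for the alignment-based and open for the other quantification. The 15-base exon of Sptan1 and the longer end of Sptbn1 lie above 94% in every value, the 63-base exon of Sptan1 lies below 5%, and the Sptbn4 long form differs most between methods, at 78.2% in replicate 2 and 81.0% in replicate 1 against 94.7% in replicate 2 and 98.4% in replicate 1.

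The 2 mice differed little in any member. Each gene's log2 ratio of replicate 2 over replicate 1 was computed from TMM-scaled expected counts, and a two-sided exact binomial test compared the 2 libraries, with Benjamini-Hochberg adjustment over 20385 genes. It covers counting error only and says nothing of conditions. At an adjusted p under 0.05, 6 of the 7 members were called, 4 higher and 2 lower in replicate 2. The direction counts depended on the scaling, with 0 higher and 5 lower under spike-in scaling and 2 higher and 2 lower under total-count scaling. Over all genes tested the call rate was 26.1%, with 13.7% higher and 12.4% lower, or 2796 higher and 2521 lower genes. These were 715 higher and 6156 lower with spike-in scaling and 2175 higher and 2998 lower with total-count scaling. Among the 8164 genes with 1000 counts or more, a depth that every member reached, it was 44.2%, with 26.8% higher and 17.4% lower. The median member ratio was 0.04, against 0.03 in genes of that depth.

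Sptb and Ank1 had the largest of the higher ratios. Sptb had 3284 reads in replicate 2 and 2600 in replicate 1, or 113 CPM in replicate 2 and 96.0 CPM in replicate 1, a log2 ratio of 0.23 (SE 0.04, exact binomial adjusted p = 1.76e-08). Ank1 had 1533 reads in replicate 2 and 1286 reads in replicate 1, or 52.7 CPM in replicate 2 and 47.5 CPM in replicate 1, a ratio of 0.15 (SE 0.05, exact binomial adjusted p = 0.0285). Ank1 showed no such gap in TPM, which also divides by the length of the models in use. A larger ratio than that of Sptb, in either direction, was found in 16.1% of the genes with 1000 counts or more, and for Ank1 in 35.2%. With spike-in scaling neither was called, at 0.08 for Sptb and 0.00132 for Ank1, and with total-count scaling Ank1 at 0.12 was not.

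Red blood cell RNA also differed between the libraries. The summed level of 11 red blood cell markers was 456 TPM in replicate 2 and 216 TPM in replicate 1, with 5 markers detected, the 4 globins and Alas2, and a median log2 ratio of 0.95 over the 7 tested. Globin genes can share reads, so their separate levels are uncertain. Several other markers of the list were near 0. Slc4a1, the anion exchanger that ankyrin-1 anchors, had 14 reads in replicate 2 and 16 in replicate 1. Epb42, a protein of the red cell membrane skeleton, had 2 reads in replicate 2 and 1 in replicate 1, and Klf1, a transcription factor of the red cell lineage, had 2 reads in replicate 2 and 3 in replicate 1. Rhag had 0 reads in both. The part of red blood cell RNA in the ratios of Sptb and Ank1 was not tested. Skeletal muscle markers, another tissue rich in Ank1, summed to 10.2 TPM in replicate 2 and 10.1 TPM in replicate 1. None of the 6 tested was called, beside a call rate of 26.1% over all genes tested. These markers had few reads, such as 108 in replicate 2 and 81 in replicate 1 for Acta1, so small differences could be missed. In bulk tissue, fewer cells of a type and less RNA per cell cannot be told apart.

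The other 5 members differed by 0.12 or less on the log2 scale. Ank3 had 25889 reads in replicate 2 and 26212 in replicate 1, a log2 ratio of -0.12 (SE 0.01, exact binomial adjusted p = 3.71e-20). Ank2 had 51105 reads in replicate 2 and 50306 reads in replicate 1, a ratio of -0.08 (SE 0.01, exact binomial adjusted p = 1.53e-17). Both neuronal ankyrins were thus lower in replicate 2, while Sptan1, at 0.07, and Sptbn1, at 0.04, were higher in scaled counts. In TPM, given above, Sptan1 and Sptbn1 were slightly lower in replicate 2, so their direction depended on the measure. Sptbn4 was not called, at -0.03 (SE 0.03, exact binomial adjusted p = 0.622), but was called with spike-in scaling, at -0.18 (exact binomial adjusted p = 7.19e-07). With spike-in scaling the median of all genes moved to -0.15, and Sptan1 at -0.08 and Sptbn1 at -0.11 then fell below 0 and were called lower; relative to that median Sptan1 was at 0.07, Sptbn1 at 0.04 and Sptbn4 at -0.03. With total-count scaling Sptbn1 was not called, at 0.01. The part of the choroid plexus, olfactory bulb and striatal markers, whose sums were higher in replicate 2, in these small differences was not tested.

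**Figure D5:**
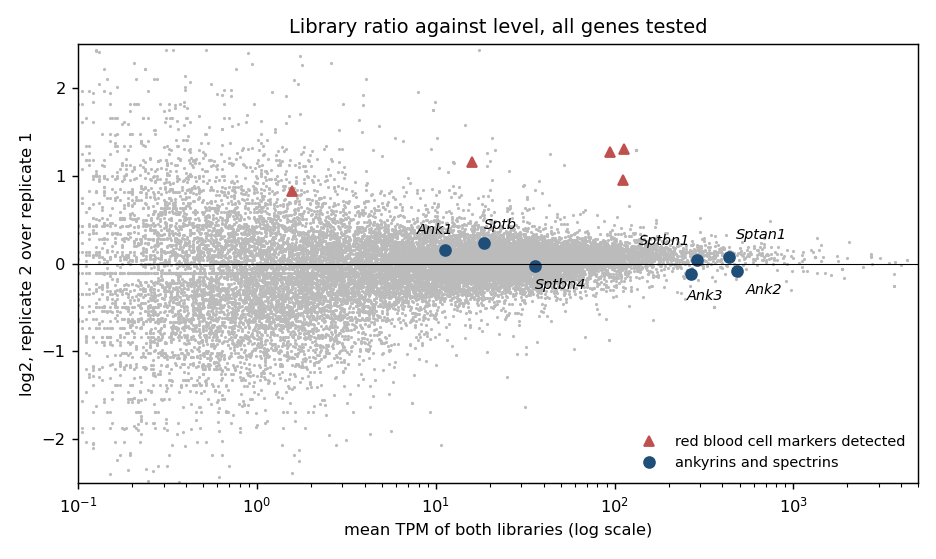
Log2 ratio of replicate 2 over replicate 1 against mean TPM on a log axis for the genes tested (grey), with the 7 members in blue circles and the 5 detected red blood cell markers in red triangles; 237 genes lie outside the axes. The members lie between -0.12 and 0.23, within the grey band, and the red blood cell markers between 0.83 and 1.30.

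The genes that ankyrins and spectrins work with were nearly all present. Of 26 genes of the axon initial segment and node, 25 were detected, with a median of 53.8 TPM over the list. The highest were the ankyrin-binding adhesion molecules L1cam at 255 ± 5.81 TPM, Chl1 at 247 ± 16.2 TPM and Nrcam at 160 ± 2.24 TPM. Cntnap1, which forms the axonal side of the paranodal junction, was the lowest detected at 2.57 ± 0.262 TPM, and Scn4b fell short at 0.475 TPM. Of the 26 tested, 5 were called higher and 5 lower in replicate 2, with a median log2 ratio of 0.01. The call rate was 26.1% over all genes tested and 44.2% among those with 1000 counts or more.

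All 13 membrane skeleton partners were detected. Cytoplasmic actins led with Actb at 2701 ± 81.6 TPM and Actg1 at 1759 ± 4.36 TPM, followed by Tmod2, a cap of the slow end of actin filaments in neurons, at 222 ± 9.75 TPM. Actb and Actg1 have processed pseudogenes that can share their reads. Tmod1, the tropomodulin of red cells and muscle, was lowest at 1.76 ± 0.0990 TPM. Of the 13, 5 were called higher and 3 lower in replicate 2, against a call rate of 26.1% over all genes tested and 44.2% among those with 1000 counts or more.

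Among 9 membrane proteins that ankyrins bind, 8 were detected and Slc4a1 was not. Atp1b1, the beta 1 subunit of the sodium pump, was at 379 ± 25.3 TPM and the sodium-calcium exchanger Slc8a1 at 152 ± 10.2 TPM. Cd44, a hyaluronan receptor, was the lowest detected at 5.19 ± 0.170 TPM. In replicate 2, 4 of these 9 genes were called higher and 2 lower, beside 26.1% called over all genes tested and 44.2% among those with 1000 counts or more.

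All 5 genes of the proteases that cleave spectrin were detected. Capns1, the calpain small subunit, stood at 95.0 ± 1.98 TPM. Capn2 was at 39.3 ± 2.78 TPM and exceeded Capn1 at 5.80 ± 0.325 TPM, the 2 calpain large subunits of most tissues. Cast, the calpain inhibitor calpastatin, was at 3.28 TPM in replicate 2 and 6.08 TPM in replicate 1, a log2 ratio of -0.65. It was the only one of the 5 genes called, beside a call rate of 26.1% over all genes tested and 44.2% among those with 1000 counts or more.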

How the data were processed

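Both libraries were made from total RNA with ribosomal RNA reduced, and the labels give their strain, sex, age and replicate number. The members and the gene lists were chosen with earlier results of these data known. For genes, and for transcripts in the first of 2 tables, the authors deposited expected counts along with TPM and posterior mean TPM. The bounds of a TPM interval, a signal in the deposited files, were not used. The percent of the gene that a transcript takes is given there too, per the file headers. The second deposited transcript table gives estimated counts and TPM alone. Per the deposited notes, the assembly was mm10 with the GENCODE M21 annotation, the first kind was quantified from alignments and the other from the reads with a transcript index. No source used here gives the aligner, the quantifiers or the use of strand in counting, and reads of the 2 parental alleles were not told apart in these values.

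Levels are the mean ± SD of the 2 libraries. Transcript shares are percents of the gene's TPM, computed from the deposited TPM, and models, exons and sequences are those of GENCODE M21. Models of incomplete start or end carry the annotation's tags. Starts less than 1000 bases from the next were put in 1 start group. Ratios between genes are log2 of TPM + 0.1 over TPM + 0.1 within a library, which hardly moves genes of this level, and were said to exceed the spread when both libraries had 1 sign and the mean exceeded 2 SD. The rule for naming transcripts was 10% or more of the gene's TPM in both libraries in either quantification, every giant model and the highest model of each class. Sptbn1-202 was named after its values were seen. Ank1-203 and Ank1-204 passed this rule in the other quantification alone and are not described further. They held 14.9% and 10.2% of the gene there in replicate 2, and 11.8% and 15.3% in replicate 1. Not every highest model of a class is reported here. Lists are given by counts, with the 3 highest and the lowest detected gene, and every gene of lists of 6 or fewer; a few genes named by this rule, and the ratio of summed beta spectrins to Sptan1, are not reported here.

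For the library ratio, expected counts per gene, whole for all members, were scaled with TMM factors of edgeR 4.0.16 (R 4.3.3) with a prior count of 0.5, and rounded for a two-sided exact binomial test (scipy 1.17.1) over annotated genes with 10 or more counts in both libraries together. The 97 spike-in rows, 0.351% of the counts in replicate 2 and 0.323% in replicate 1, and 26248 rows with numeric identifiers, 2 and 6 reads, were left out. A gene with 0 reads may lie at up to 3 counts, or 0.102 CPM in replicate 2 and 0.112 CPM in replicate 1, and such limits cover counting error only. The test was tried on simulated data with known answers. Alternatives were the other quantification, posterior mean TPM, a pseudocount of 1, other denominators, DESeq2 1.42.0 size factors, total counts, spike-in counts and other minimum counts. Fixed-length counts and shares of expected counts were added after the data were seen.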

Additional observations from a re-analysis of the deposited data

How the results depend on the processing

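Levels moved by more than the spread between the mice in the other quantification: Ank1 15.7, Ank2 542, Ank3 399, Sptan1 544, Sptb 25.5, Sptbn1 397 and Sptbn4 43.1 TPM. Posterior means moved Ank1 to 12.0, Sptan1 to 419 and Sptbn1 to 279 TPM. In the other quantification the log2 ratios were 0.45 for Ank2 over Ank3, -0.45 for Sptbn1 over Sptan1 and -3.20 for Sptbn4 over Sptbn1. With fixed-length counts they were 0.44, -0.35 and -3.33, and -3.94 for Ank1 over Ank3. The giant share of Ank2 was 43.8% in the other quantification, 48.2% over coding models and 76.1% of expected counts, and that of Ank3 24.4%, 35.2% and 41.8%. Sptan1 and Sptbn1 changed sign with spike-in scaling, at -0.0763 and -0.106, and Sptbn4, not called in the reported analysis, was at 0.00148 from the other quantification and was called at -0.175 with spike-in scaling. The numbers of genes and of members called in either direction stayed within 1.5 times the reported ones, the lowest being 4 of 7 members with total-count scaling. Split by direction they did not, with 0 members higher and 5 lower under spike-in scaling and 2 higher and 2 lower under total-count scaling. Coding Ank2 models that skip the giant exon held 6.53% in the other quantification. The cause of these moves was not tested.

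Leaving out a mouse left single-library values, which are those given in the text. No paired analysis was possible because there is only 1 group. Precision is limited by 2 mice, and transcript shares also by reads that fit several models.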
